A study of Homo sapiens with 3 samples.

Results

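The 8 genes described here were selected on their measured mRNA levels, which were low in A549 cells transfected with an siRNA against TAZ and, for 7 of them, close to the control level in cells transfected with an siRNA against YAP. They are HACD3, CDS2, NUS1, CPNE3, BROX, AVL9, KCTD5 and ZBTB44, 8 of 14884 genes with a named probe set on the array. A549 is an established human lung cancer cell line. The 3 samples were A549 cells given siTAZ, siYAP or a control siRNA (siNC), each with 1 array of total RNA taken 48 h after transfection with a lipid reagent. All 3 groups, the control included, were therefore transfected cells, and an untransfected sample was not analysed here. No siRNA sequence was used here. With 1 array per group no value has an error, no difference was tested, and every value below describes these 3 arrays. An effect of less TAZ and any other effect of that one transfection cannot be told apart in this design.

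TAZ (gene symbol WWTR1) and YAP (YAP1) are paralogous co-activators that the Hippo kinase pathway holds out of the nucleus. They have no DNA-binding domain of their own and reach target genes mainly through the TEAD transcription factors. The 8 genes are not a known pathway. HACD3, CDS2 and NUS1 take part in making lipids in the endoplasmic reticulum. CPNE3, BROX and AVL9 encode proteins linked to membrane binding, remodelling or traffic. Whether such functions are more common among these genes than among all genes was not tested. KCTD5 and ZBTB44 both encode proteins with a BTB domain, a fold through which proteins pair with each other or with the ubiquitin ligase scaffold CUL3.

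Levels are RMA values on a log2 scale, so a difference of 1 is 2-fold. The array medians were 4.26 (siTAZ), 4.27 (siYAP) and 4.28 (siNC), and 10768 genes lay at or above 4.27 on average and were kept. WWTR1, the target of siTAZ, had 5.81 in the siTAZ array, against 6.50 in both the siYAP and the siNC array, which left 62.2% of the control level. YAP1, the target of siYAP, had 6.87 in the siYAP array, 8.24 in the siTAZ array and 8.45 in the siNC array. The siYAP array thus kept 33.5% of the control level of YAP1. The YAP1 values were those of the brighter of 2 named probe sets, and WWTR1 had 1. Each target was lowest in its own array. Of the epithelial markers, 7 of 8 were named and kept, and CDH1 had no named probe set. The highest was KRT18 at 11.4 (siTAZ), 11.6 (siYAP) and 11.6 (siNC). The other kept epithelial markers ranged from 4.67 (CLDN4) to 8.13 (EPCAM) in the siTAZ array. The keratin gene KRT7 had 6.10 in the siTAZ array and 6.51 in both others, a smaller difference of the members' kind. The leukocyte list kept 4 of 10 genes, with CD68 at 9.001, 9.016 and 8.43 in the same order of arrays. The fibroblast and endothelial list kept 3 of 10, with LUM at 8.14, 8.10 and 7.45. The other kept genes of these 2 lists were lower, at 4.42 to 5.67 in the siTAZ array, nearer the filter at 4.27. The epithelial marker CLDN4, at 4.67, lay in the same range. LYZ (3.75 in the siTAZ array), DCN (2.38), PECAM1 (3.90) and KDR (3.89) were named but lay under the filter. The defining genes PTPRC and COL1A1 had no named probe set. Of these 7 kept markers of other cell types, 2 (CD68 and LUM) were above siNC in the siTAZ array, 4 were identical to it and 1 (THY1, at -0.16) was below. In the siYAP array 3 were above siNC, 3 identical and 1 below. The part of such cells in the results was not tested. In RNA from bulk cells, fewer cells of a kind and less RNA per cell cannot be told apart.

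The members were chosen for these very values, which therefore stand as a description. The choice asked for a low siTAZ level with siNC and siYAP within 0.1 of each other. All 8 members passed the filter on level. Each was read by 1 named probe set, so no further named probe set gave a repeat of the reading. The 0.1 bound held for 7 of the 8, and AVL9 lay outside it. Across the members the siTAZ level was 43.2% to 61.3% of the siNC level (median 54.2%) and 44.1% to 65.5% of the siYAP level (median 56.3%). The siYAP level was 77.8% to 105% of the siNC level (median 97.6%), with AVL9 at the low end. The siTAZ value was the lowest of the 3 for every member.

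**Figure D1:**
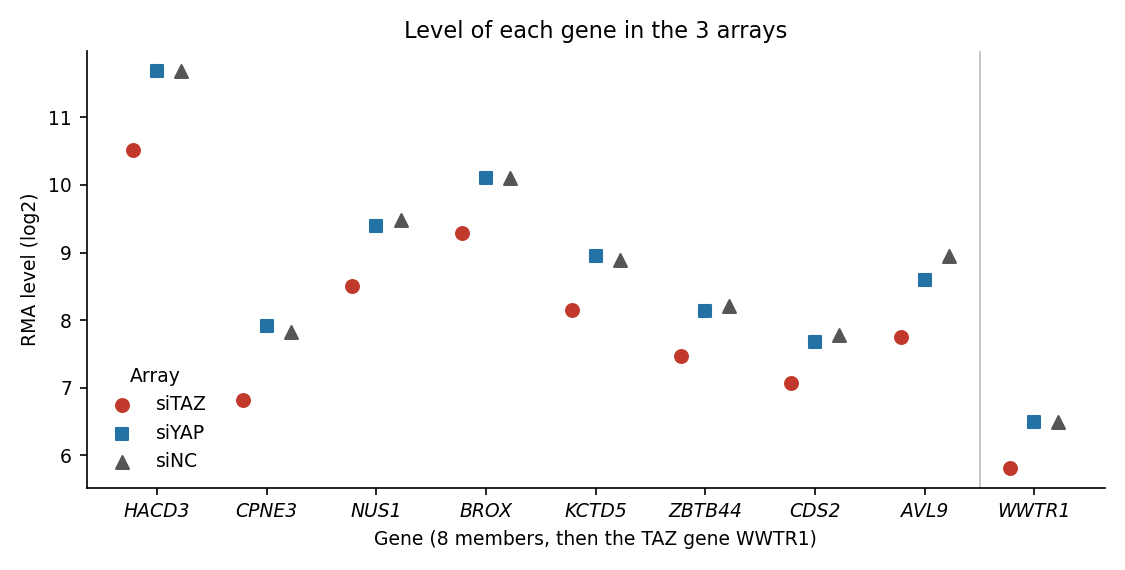
RMA level on a log2 scale in the siTAZ (circle), siYAP (square) and siNC (triangle) array for the 8 members and for WWTR1, the gene of TAZ, with 1 array per group and so no error bars. For each gene the siTAZ point is the lowest, and AVL9 is the member whose siYAP and siNC points stand clearly apart (8.59 and 8.96).

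HACD3, CDS2 and NUS1 encode enzymes or enzyme subunits of lipid synthesis. HACD3 is a dehydratase of the cycle that lengthens very long-chain fatty acids in the endoplasmic reticulum. Its level was 10.5 in the siTAZ array, 11.7 in the siYAP array and 11.7 in the siNC array. The siYAP and siNC values differed by 0.0088, and the siTAZ level was 2.27-fold below siYAP and 2.25-fold below siNC. Only 2 of the 10768 kept genes had a lower siTAZ minus siYAP difference. CDS2 makes CDP-diacylglycerol, the precursor of phosphatidylinositol and thus of the lipids that phospholipase C signalling uses up. It had 7.07 in the siTAZ array, 7.68 in the siYAP array and 7.77 in the siNC array, so siTAZ was 1.53-fold below siYAP and 1.63-fold below siNC. This was the shallowest member, and also the one closest to the bound, with siYAP minus siNC at -0.096. NUS1 encodes the Nogo-B receptor, the partner subunit of DHDDS in the enzyme that makes dolichol, the lipid carrier of N-glycan precursors. Its levels were 8.51 (siTAZ), 9.40 (siYAP) and 9.47 (siNC). The siTAZ level was 1.85-fold below siYAP and 1.95-fold below siNC.

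CPNE3, BROX and AVL9 encode proteins that bind or move membranes. CPNE3 is a copine, a protein with C2 domains that binds phospholipids in the presence of calcium. It had 6.81 in the siTAZ array, 7.91 in the siYAP array and 7.83 in the siNC array, so siTAZ was 2.13-fold below siYAP and 2.02-fold below siNC. HACD3 and CPNE3 were the members for which siTAZ lay at least 2-fold below both other arrays. BROX carries a BRO1 domain, which binds the CHMP4 subunits of the membrane-cutting ESCRT-III complex. Its value was 9.30 in the siTAZ array and 10.1 in the other arrays, where it was identical, as were 51.3% of kept genes. The siTAZ level was 1.75-fold below both. AVL9 is named after a yeast gene of the late secretory pathway and encodes a protein of the DENN-domain superfamily. Its levels were 7.74 (siTAZ), 8.59 (siYAP) and 8.96 (siNC), all apart from one another. The siTAZ level was 2.32-fold below siNC and 1.80-fold below siYAP, and siYAP was itself 1.28-fold below siNC. On the log2 scale, 29.8% of its difference from the control in the siTAZ array was also present in the siYAP array, so AVL9 was lowest in the siTAZ array but not low in that array alone.

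The other 2 members encode proteins with a BTB domain. KCTD5 is an adaptor that brings substrates, among them G protein beta subunits, to the CUL3 ubiquitin ligase. It had 8.15 in the siTAZ array, 8.94 in the siYAP array and 8.89 in the siNC array, so siTAZ was 1.74-fold below siYAP and 1.68-fold below siNC. ZBTB44 is a zinc finger protein of the BTB family of transcription regulators. Its levels were 7.47 (siTAZ), 8.13 (siYAP) and 8.21 (siNC), with siTAZ 1.58-fold and 1.66-fold below siYAP and siNC. Among all members the small siYAP minus siNC difference had no common sign: it was positive in 3 (HACD3, CPNE3 and KCTD5), negative in 4 and exactly 0 in BROX. For HACD3 and BROX it was negative after a second quantile normalization (-0.0048 and -0.034).

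The rule used both contrasts with the siTAZ array, so counts of members in them are set beside the background and nothing is read from them. All 8 members were at least 1.5-fold below siNC in the siTAZ array, where 1.02% of the kept genes were (110 genes). All 8 were also at least 1.5-fold below siYAP, where 0.566% were (61 genes). At 2-fold, 3 members (AVL9, HACD3 and CPNE3) were below siNC against 0.241% of kept genes, and 2 were below siYAP against 0.065%. The siYAP and siNC values lay within 0.1 for 76.2% of kept genes and were identical for 51.3%, so the closeness of those values by itself sets a member apart from few genes. Among the 110 genes at least 1.5-fold below siNC in the siTAZ array, 21.8% had siYAP within 0.1 of siNC.

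**Figure D2:**
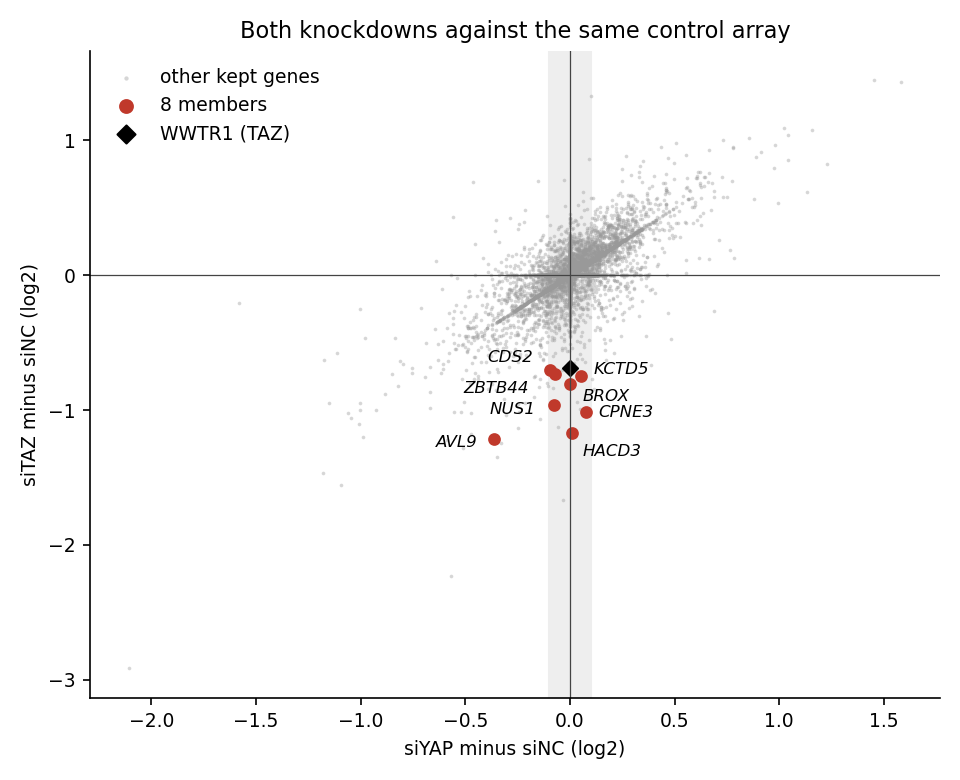
Each point is 1 of 10768 kept genes, with siYAP minus siNC (log2) on the x axis and siTAZ minus siNC (log2) on the y axis, and the grey band marks siYAP and siNC within 0.1. In the plot 7 of the 8 members (red) lie inside the band between -0.71 and -1.17 on the y axis and AVL9 lies left of it. Both axes subtract the same control array, which by itself draws points along the diagonal.

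With a bound of 1.5-fold, 23 of 10768 kept genes (0.214%) were low in the siTAZ array alone, meaning that siTAZ lay at least 1.5-fold below both other arrays while those were within 0.1. Of the members, 7 were among the 23, and 16 others shared the pattern. The mirror pattern, high in the siTAZ array alone, held for 3 genes (0.0279%). The siYAP array had 0 genes that were low and 0 that were high alone under the same definition. YAP1 itself was not counted there, because its siTAZ minus siNC difference was -0.21. The siNC array stood apart as low for 19 genes (0.176%) and as high for 14 (0.13%), which are genes that differed alike in both knockdowns. At 2-fold, 4 genes were low in the siTAZ array alone (0.0371%), of which HACD3 and CPNE3 are members, and 1 (0.00929%) was high.

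**Figure D3:**
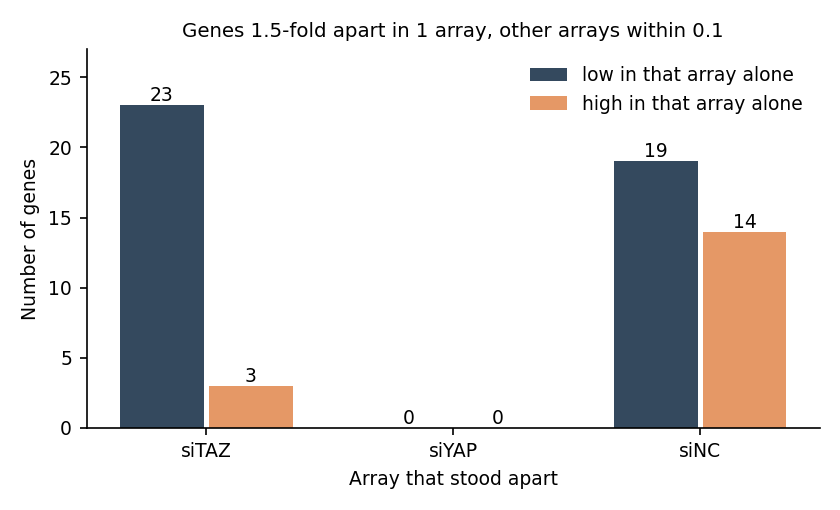
Number of kept genes (y axis) that were at least 1.5-fold low (dark) or high (light) in 1 array while the other arrays were within 0.1, for the siTAZ, siYAP and siNC array on the x axis. The siTAZ array had 23 low and 3 high genes and the siYAP array had none of either.

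The genes most like the members were ranked by the smaller of their drops from siNC and from siYAP, over 3 arrays. GALNT1, which starts mucin-type O-glycosylation, came first. It had 8.45 in the siTAZ array, 10.1 in the siYAP array and 10.1 in the siNC array. Its siTAZ minus siNC difference of -1.67 was larger in size than that of any member. HNRNPA1P33 (-1.13) and RPL23AP87 (-0.996) followed at the 3rd and 5th place, both transcribed pseudogenes whose probes may also take signal from other copies. KIF4A, a chromosome-associated kinesin, was 6th, with 7.17 (siTAZ), 8.15 (siYAP) and 8.12 (siNC). UBA6, a ubiquitin-activating enzyme, had a siTAZ minus siNC difference of -0.84. The siRNA target WWTR1 was itself the 11th gene of this order, at -0.69 against both arrays. UTP25, a factor of small ribosomal subunit assembly, was at -0.70, the microRNA gene MIR4326 at -0.66, RBBP9, a serine hydrolase, at -0.65 and the mitotic regulator gene FOXM1 at -0.65. MIR4326 had 4.33 in the siTAZ array, near the filter at 4.27. In the same order HACD3 was 2nd, CPNE3 4th, NUS1 7th, BROX 8th, KCTD5 10th, ZBTB44 13th and CDS2 21st.

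The genes on either side of the bounds differed little from one another. KIF4B was the last of the 23, with a smaller drop of 0.59, and its probes may share signal with KIF4A. CYB5B lay just under the 1.5-fold bound at 0.56. On the other bound, CDS2 was the last gene inside with siYAP minus siNC at -0.096, and SUDS3 (-0.10) and CILK1 (0.11) were the first outside it, with siTAZ minus siNC differences of -0.82 and -0.77. In the mirror pattern MBOAT1, a lysophospholipid acyltransferase, was at 1.33 above siNC, followed by C3orf80 (0.86), MIR4267 (0.70), GPATCH11 (0.62) and TRIML2 (0.51), the last and GPATCH11 under 1.5-fold against siYAP.

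For each member the other genes of its pathway or family were read in the same arrays where they had a named probe set. The 8 lists held 224 genes that are not members, of which 144 had a named probe set. Of these, 132 were kept. In the siTAZ array 1 of these was at least 1.5-fold below siNC (1.02% of all kept genes were) and 2 at least 1.5-fold above it (0.762% were). Against siYAP, 0 were 1.5-fold lower (0.566% were) and 0 higher (0.176% were). Their median siTAZ minus siNC difference was 0, as it was over all kept genes. Of these 132 genes, 41.7% had identical values on all 3 arrays, against 41.1% of all kept genes. Identical values were thus common on these arrays, and alone they do not show that a gene was stable. That each member lay past 1.5-fold below siYAP in its list followed from the choice of members, so nothing is read from it.

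**Figure D4:**
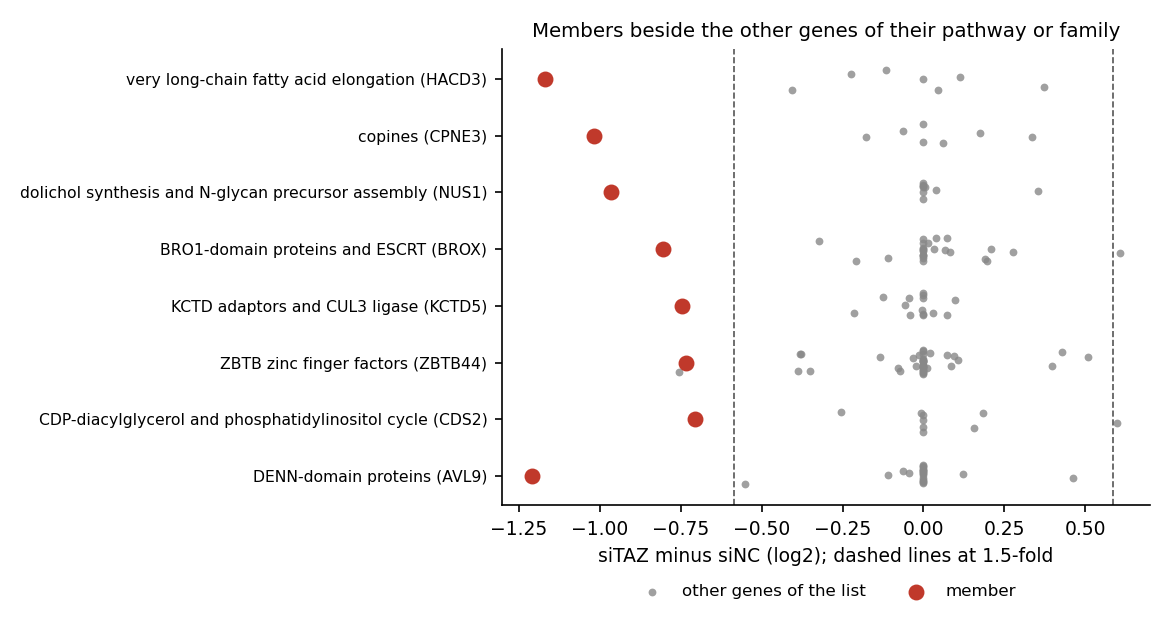
siTAZ minus siNC (log2, x axis) for the members (red) and the other kept genes (grey) of the pathway or family of each member, with dashed lines at 1.5-fold and points spread vertically for legibility. Members lie left of the lower line, where 1 further gene, the zinc finger gene ZBTB10, also lies (-0.76).

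In fatty acid elongation, 7 kept genes besides HACD3 ranged from -0.41 to 0.37 in siTAZ minus siNC, and 0 of 7 reached 1.5-fold. ELOVL4, an elongase for very long chains, was the lowest at -0.41 (-0.55 against siYAP) and ELOVL7 the highest at 0.37. The paralog HACD4 was identical on all 3 arrays at 4.73, while HACD1, HACD2 and the reductase gene TECR had no named probe set and HSD17B12 lay under the filter. Among the copines, 7 kept genes besides CPNE3 ranged from -0.18 to 0.33, with CPNE2 at 0.17 and CPNE8 at -0.063. CPNE1 had no named probe set. The dolichol and N-glycan precursor list kept 9 of its 25 other genes, at 0 to 0.35, and the rest had no named probe set. DHDDS, the catalytic partner of NUS1, was identical on all 3 arrays at 6.87. SRD5A3 had no named probe set.

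The ESCRT list kept 25 genes besides BROX, which ranged from -0.32 to 0.61. CHMP4C, an ESCRT-III subunit that BRO1 domains bind, was the gene past 1.5-fold. It had 8.19 (siTAZ), 8.06 (siYAP) and 7.59 (siNC), and so was higher in both knockdown arrays. PDCD6IP, PTPN23 and RHPN2, the best known relatives of BROX, had no named probe set. In the CUL3 adaptor list 14 kept genes besides KCTD5 ranged from -0.22 to 0.096. KCTD2, the closest paralog, was identical on all 3 arrays at 7.39, as was CUL3 at 8.76. KCTD17 was higher in the siYAP array, at 6.32, than in the siTAZ and siNC arrays, at 5.995 in both. Of 40 other kept ZBTB family genes, 1 was at least 1.5-fold below siNC. This gene, ZBTB10, had 6.04 (siTAZ), 6.10 (siYAP) and 6.79 (siNC), low in both knockdown arrays, unlike ZBTB44.

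The phosphatidylinositol list kept 9 of its 45 other genes, and the rest had no named probe set. CDS1, the paralog of CDS2, had 6.45 in both knockdown arrays and 6.29 in the siNC array. CDIPT, which uses the product of CDS2 to make phosphatidylinositol, had 9.01 (siTAZ), 8.78 (siYAP) and 8.41 (siNC), 0.60 higher in siTAZ than in siNC. PGS1 and CRLS1, which act on the same intermediate in cardiolipin synthesis, had siTAZ values identical to siNC. TAMM41 had no named probe set. The DENN-domain list kept 21 genes besides AVL9, from -0.55 (DENND5B) to 0.46, and 0 of 21 reached 1.5-fold. DENND11 was identical on all 3 arrays at 7.88, and DENND6A and DENND10 had no named probe set.

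Promoter sequence was a feature that the choice of members did not use. RefSeq promoter windows of GRCh38.p14, each 250 bases before to 50 bases after a gene start, matched 7 of the 8 members, with 9 windows in all. The core TEAD site GGAATG was in 0 of the 9 windows on either strand, against 14.03% of all 35116 windows and 11.8% of the windows of kept genes. The AP-1 site TGANTCA was likewise in 0 of 9, against 7.71% and 5.69%. The GC box GGGCGG was in 9 of 9 windows, against 45.0% of all and 64.3% of those of kept genes, and CCAAT was in 4 of 9, against 34.6% and 33.9%. The median GC content of the members' windows was 67.7%, against 64.3% for kept genes and 58.7% for all. A motif match is a description of letters, windows of 1 gene share a locus, and the absence of a match in so short a window says nothing on distant enhancers. The 150 bases before the start are printed below for the 4 members with a promoter entry that stand highest in the order given above, so that these letters can be seen. The capitals mark GGGCGG or CCAAT on either strand (CCGCCC and ATTGG read on the other strand), and adjoining sites run together. All 4 are on the plus strand, and for HACD3 and BROX the more upstream of 2 windows is shown. They lie at chr15:65530313-65530462, chr6:117675319-117675468, chr1:222712414-222712563 and chr16:2682373-2682522.
HACD3: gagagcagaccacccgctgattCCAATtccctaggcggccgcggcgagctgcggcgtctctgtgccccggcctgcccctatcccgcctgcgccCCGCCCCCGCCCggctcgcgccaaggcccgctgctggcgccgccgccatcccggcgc
NUS1: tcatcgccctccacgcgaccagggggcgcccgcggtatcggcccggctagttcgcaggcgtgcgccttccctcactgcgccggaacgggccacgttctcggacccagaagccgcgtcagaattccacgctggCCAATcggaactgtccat
BROX: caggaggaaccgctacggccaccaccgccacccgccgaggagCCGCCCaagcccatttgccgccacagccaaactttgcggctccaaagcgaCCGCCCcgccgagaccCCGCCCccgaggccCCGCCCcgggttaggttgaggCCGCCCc
KCTD5: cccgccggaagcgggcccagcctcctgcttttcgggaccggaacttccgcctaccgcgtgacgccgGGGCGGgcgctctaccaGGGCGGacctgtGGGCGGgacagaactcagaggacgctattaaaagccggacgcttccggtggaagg
The stretch of BROX held 5 GC boxes, that of KCTD5 3 and that of HACD3 2 beside 1 CCAAT, while NUS1 had 1 CCAAT here and its GC box among the 50 bases after the start.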

How the data were processed

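Gene expression in A549 cells was measured on 1-colour Affymetrix whole-transcript arrays, 1 each for siTAZ, siYAP and siNC, with 500 ng RNA as input, per the labels' protocols. The authors deposited 1 value per probe set on what was read as a log2 scale (range 0.96 to 13.5), made with RMA per the submitters' processing notes. Its version and the genome build were not stated in what was used here. Quantile normalization in RMA fits the arrays to 1 common distribution, so a value has meaning only within that scale. The number of arrays limits the precision.

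Of 53617 probe sets, 16098 had exactly 1 gene symbol in the platform annotation and are called named. All 16098 Entrez identifiers matched RefSeq (GRCh38.p14). The brightest probe set stood for its gene, and genes at or above the median level were kept. Differences of log2 values were computed with Python 3.11.15 and pandas 2.3.3. No test was possible. The members and gene lists were chosen with earlier results of these data known. The genes named were the members, both siRNA targets, listed relatives, the 10 other genes most like the members, 5 with the mirror pattern and list genes past 1.5-fold. ELOVL4, ELOVL7, DENND5B, KIF4B, CYB5B, SUDS3, CILK1, PGS1, CRLS1, KRT7, KRT18, CD68, LUM and THY1 were named after their values were seen. So were the markers EPCAM, CLDN4, LYZ, DCN, PECAM1 and KDR. The closing section gives the alternatives tried.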

Additional observations from a re-analysis of the deposited data

How the results depend on the processing

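The members' 3 differences were recomputed with the mean of all probe sets, a shift to a median of 0, removal of a loess trend (span 0.4) and a second quantile normalization. Of 96 recomputed values, 95 kept their side of the 1.5-fold or 0.1 bound, and the exception was CDS2, whose siYAP minus siNC was -0.11 after the second quantile normalization. The 64 recomputed differences from siTAZ all kept their direction and moved by at most 0.020. Of the 32 recomputed siYAP minus siNC values, 3 changed sign or left 0: HACD3 was at -0.0048 and BROX at -0.034 after the second quantile normalization, and BROX at -1.35e-05 after removal of the loess trend. The first and second of these alternatives changed no member value by construction, since each member has 1 probe set and the medians were 0.

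The count of 23 genes low in the siTAZ array alone at 1.5-fold ranged from 20 to 32 over all other alternatives, and was 11, 2 of them members (HACD3 and BROX), when siYAP and siNC had to lie within 0.05. That bound also left 2 of 4 genes at 2-fold, 1 of 3 high genes at 1.5-fold and 0 of 1 at 2-fold. The high count at 1.5-fold was 7 without the filter on level and 1 with the mean of all probe sets, and the high count at 2-fold was 2 without the filter. Counting protein-coding genes alone, an alternative chosen after seeing the data, gave 20 low genes. No paired analysis was possible because each group has 1 array. The list counts and medians of siTAZ minus siNC were also recomputed, with the member in its list. Of 198 values, 196 were called the same, with 0.1 as the bound for a moved median. The list values without the members and those against siYAP were not recomputed. The 2 others were the leukocyte and the fibroblast and endothelial medians, 0.57 and 0.69 under the 75th percentile filter. That filter left CD68 and LUM alone in these lists, so these are the values of single genes.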

Other observations

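Probe sets with no gene symbol, or with more than 1, in the annotation were not used in any count of genes above. Of the 15272 such probe sets at or above the same level, 49 (0.321%) were low in the siTAZ array alone at 1.5-fold and 18 (0.118%) were high. These shares are per probe set and stand beside 0.214% and 0.0279% of the kept genes, each read by its brightest probe set.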
